A study of Mus musculus with 2 samples.

Results

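Tropomyosins, caldesmon and other proteins that sit along or cap the actin thin filament were followed on 2 two-colour Agilent arrays of mouse ureter RNA. The members are 9 genes: the tropomyosins Tpm1, Tpm2, Tpm3 and Tpm4, the caldesmon gene Cald1, the leiomodin gene Lmod1, the smoothelin gene Smtn, the synaptopodin 2 gene Synpo2 and the tropomodulin gene Tmod1. Every non-control probe that carries one of these names was taken, which gave 19 probes of 39429 on the array. The RNA came from ureters dissected at E14.5, a mid-gestation embryonic day, from embryos of the NMRI strain. One group is labelled Smad4cKO and has the genotype Tbx18(cre/+);Smad4(fl/fl), in which Cre made in Tbx18-expressing ureteric mesenchyme recombines both conditional Smad4 alleles. The other group is labelled control and has the genotype Tbx18(+/+);Smad4(fl/+), so it also carries a conditional Smad4 allele but no Cre. The Smad4cKO embryos have Cre in place of a Tbx18 allele, so effects of Tbx18 and of Smad4 cannot be told apart. Array 1 held a female pair, with the labelled Smad4cKO in green, and array 2 a male pair, with the labelled Smad4cKO in red. The dye therefore changed with the sex. The number of arrays, 2, limits how precise any value can be. Nothing in the labels says how many embryos or litters each RNA came from, so the errors describe only these 2 pairs.

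Tropomyosins are coiled-coil dimers that lie end to end along actin filaments and set which other proteins can bind there. The genes differ in how many products they yield, through alternative exons and, in some of them, alternative promoters. Smooth muscle relies on products of Tpm1 and Tpm2, while Tpm3 and Tpm4 products are widespread in non-muscle cells. Caldesmon binds actin, tropomyosin and myosin and inhibits the myosin ATPase, with a long form typical of differentiated smooth muscle and a short form in other cells. Leiomodin starts new filaments and tropomodulin caps their slow-growing ends. Smoothelin and synaptopodin 2 are actin-associated proteins of contractile smooth muscle.

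The sequence of a probe shows which stretch of a transcript was measured. Printed here are 7 probes of 5 genes, 5′ to 3′ as the scanner files give them, picked by hand from the 15 that have a reading frame with no stop before the last codon. Such a frame is no proof of coding sequence. The capitals in the second Tpm1 probe mark the stop codon that closes its only such frame.
Tpm1, A_55_P2078680: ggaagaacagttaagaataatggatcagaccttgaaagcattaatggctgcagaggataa
Tpm1, A_55_P2032192: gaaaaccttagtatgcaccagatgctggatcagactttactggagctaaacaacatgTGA
Tpm2, A_55_P2121408: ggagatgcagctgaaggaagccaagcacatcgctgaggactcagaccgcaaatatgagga
Tpm2, A_52_P315976: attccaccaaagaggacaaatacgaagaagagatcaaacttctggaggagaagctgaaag
Tpm3, A_55_P2246235: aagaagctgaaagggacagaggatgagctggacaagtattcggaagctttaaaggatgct
Smtn, A_51_P479786: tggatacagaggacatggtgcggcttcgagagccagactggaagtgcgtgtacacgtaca
Synpo2, A_52_P223127: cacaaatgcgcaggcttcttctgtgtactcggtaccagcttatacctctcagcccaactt
All member probes are 60 bases long. A search for runs of 20 or more shared bases found the other Tpm1 pair, A_55_P2187038 and A_55_P2187043, which overlap by 46 bases and are therefore not separate measurements. The Tpm4 probe shared a run of 26 bases with the probe of Gm7809, a predicted gene that the file describes as similar to the tropomyosin alpha-4 chain, so part of its signal may come from that copy. No other member probe shared such a run with a probe of another gene. Positions below were copied from the scanner files, which use build mm9. No annotation of that build was used, so exons and untranslated regions are not assigned.

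Each value is given as the normalized intensity in the 4 channels and as a log2 ratio, in which a positive value means that the channel labelled Smad4cKO was the brighter. Read through the dyes, this ratio runs opposite to the authors' deposited table, which holds control over Smad4cKO on both arrays under titles that put Smad4cKO first. The targeted gene did not settle the matter: Smad4 gave -0.69 on array 1 and -0.14 on array 2 (mean -0.42, SE 0.17, limma adjusted p = 1), and which exons the deletion removes is not stated. Tbx18, named here outside the naming rule, gave 0.07 on array 1 and 0.81 on array 2 (mean 0.44, SE 0.20). That is the opposite sign to Smad4, and it did not settle the matter either. If the dye labels were exchanged, every log2 ratio between the groups below would change sign, with no change in its size or test. Ratios of red over green would stay as they are. Intensities are compared within a probe only, and where a pair is given for an array the labelled Smad4cKO comes first.

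Of the 9 genes, 8 had a probe that could be tested, with 17 probes in all. No member was brighter or dimmer by at least 1.5-fold on both arrays, where 1.01% of the 21238 genes tested passed in either direction. Limma (Benjamini-Hochberg adjustment over all genes, threshold 0.05) called 0 members, against 0.00471% of all genes, which is 1 gene, and 0 members had an unadjusted p under 0.05, against 5.11% of all genes. The last count was 1 (Synpo2) with processed signals or the authors' values and 2 (Synpo2 and Tmod1) with an intensity trend and robust variance. The median log2 ratio of the 8 genes was 0.05, with -0.50 on array 1 and 0.16 on array 2, beside a median of 0.0047 over all genes. The tropomyosin, caldesmon and smoothelin means lay between -0.11 (Cald1) and 0.20 (Tpm2), and the values farthest from 0 were those of Synpo2 (-0.48) and Tmod1 (-0.32). At 4 of the 8 genes the arrays differed in sign, against 60.3% of all genes. By probe, 0 of 17 passed the 1.5-fold rule (0.964% of all 26670 probes), 0 lay past it in opposite directions (1.33%), 0 were called by limma (0.0075%) and 0 had an unadjusted p under 0.05 (4.92%). Each of the 17 probes had a limma adjusted p of 1 and a 95% interval that included 0. For 11 of the 17 the interval lay wholly within 1.5-fold either way, and for 16 within 2-fold.

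**Figure D1:**
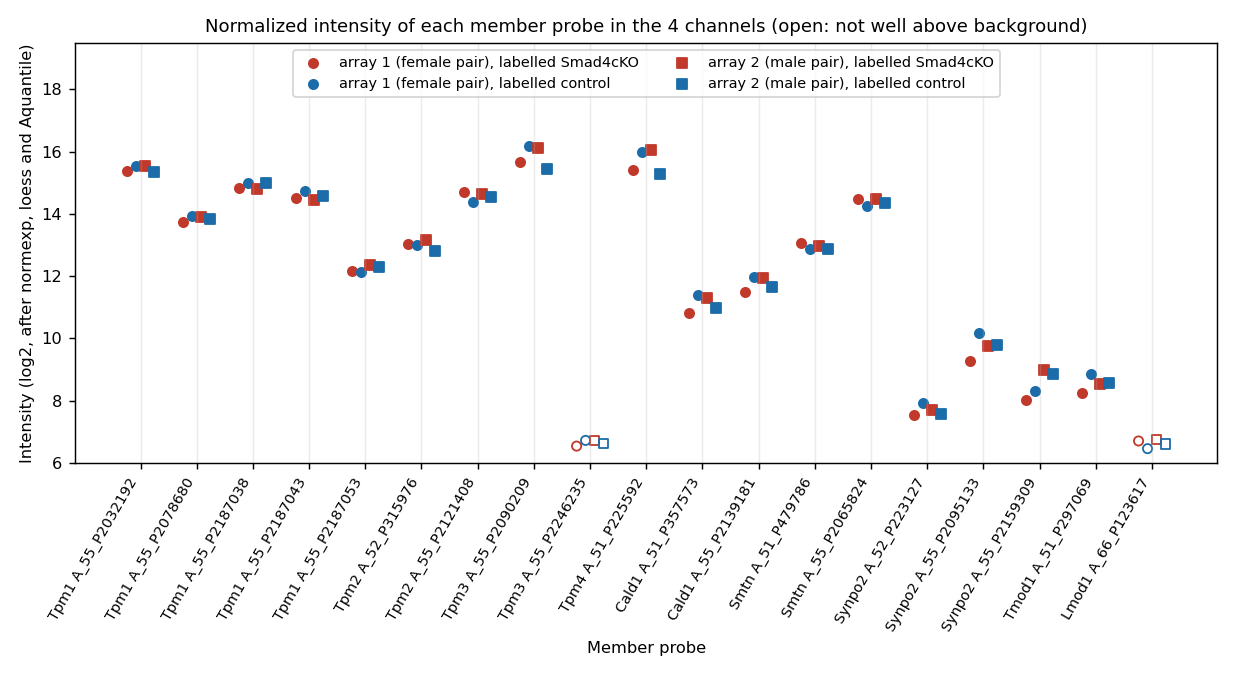
Normalized intensity (log2, y axis) of the 19 member probes (x axis) in the 4 channels: circles are array 1 and squares array 2, red symbols are labelled Smad4cKO and blue symbols labelled control (not the dyes), and open symbols are not well above background. In 2 probes, A_55_P2246235 of Tpm3 and A_66_P123617 of Lmod1, all 4 channels stay near background, and in the brighter probes the red and blue symbols lie close together or change order between the arrays.

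Tpm1 was bright at all 5 of its probes (chromosome 9, minus strand), and at none did the limma test find a difference between the groups. Probe A_55_P2032192 (66871166 to 66871225), which the file assigns to transcript variant 2 and which ends at the stop codon printed above, gave intensities of 42738 in the labelled Smad4cKO and 48069 in the labelled control of array 1, and 47960 and 41652 on array 2. The groups overlap, with the red channel the brighter on each array. Its log2 ratios were -0.17 and 0.20, with a mean of 0.02 (SE 0.15, n = 2, limma adjusted p = 1) and an interval from 1.28-fold dimmer to 1.31-fold brighter.

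The Tpm1 probe nearest the 5′ end, A_55_P2078680 (66880274 to 66880333, variant 5), gave 13589 and 15777 on array 1 and 15205 and 14530.3 on array 2. Its mean log2 ratio was -0.07 (SE 0.14). The overlapping pair for variant 1 was the only part of Tpm1 where both arrays gave a negative ratio. A_55_P2187038 (66875796 to 66875855) gave 29023 in the labelled Smad4cKO and 32765 in the labelled control on array 1, and 28403 and 32312.5 on array 2. The lower value belonged to the labelled Smad4cKO each time. Such a same sign is common: 39.7% of all probes tested had it.

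The ratios of that probe were -0.17 and -0.19, with a mean of -0.18 (SE 0.13) and an interval from 1.41-fold dimmer to 1.10-fold brighter. A_55_P2187043 (66875782 to 66875841), its partner, gave -0.23 and -0.13. A_55_P2187053 (66872131 to 66872190, variant 9) stood at 4590.05 and 4537 on array 1 and at 5258 and 5056 on array 2, which is a mean ratio of 0.04 (SE 0.13). The 5 probes lie up to 9108 bases apart, and differences between them were not tested. Averaged over its probes, Tpm1 had a log2 ratio of -0.08, against 0.02 at the brightest probe, and neither passed the test.

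Tpm2, the tropomyosin of smooth and slow skeletal muscle, gave small positive ratios on both arrays at both of its probes (chromosome 4, minus strand). A_55_P2121408 (43532262 to 43532321) had intensities of 26692.5 in the labelled Smad4cKO and 21269.6 in the labelled control on array 1, and 25255 and 24007 on array 2. The labelled Smad4cKO was the higher each time, but the controls differed from each other by more than the groups did on array 2. The log2 ratios were 0.33 and 0.07, with a mean of 0.20 (SE 0.14, limma adjusted p = 1).

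A_52_P315976 (43531276 to 43531335), the second Tpm2 probe, read 8310.1 and 8266 on array 1 and 9207 and 7225 on array 2. Here the larger ratio was on array 2 (0.35) and the smaller on array 1 (0.01), the reverse of the first probe. The mean of 0.18 (SE 0.15) was close to that of the first probe. Neither interval reached beyond 1.46-fold brighter.

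Tpm3 and Tpm4 were the members whose ratios differed most between the arrays. The bright Tpm3 probe, A_55_P2090209 (chromosome 3, plus strand, 89904428 to 89904487), gave 52166 in the labelled Smad4cKO and 74381.5 in the labelled control on array 1, and 70569 and 44290.1 on array 2. The red channel was the brighter on each array, by 0.51 and 0.67 on the log2 scale. The genotype ratio was therefore -0.51 on array 1 and 0.67 on array 2, with a mean of 0.08 (SE 0.27).

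Tpm4 followed the same order at its only probe, A_51_P225592 (chromosome 8, plus strand, 74676891 to 74676950). It gave 43127 and 64300.3 on array 1 and 68455 and 39529 on array 2, with the red channel again the higher. Its ratios were -0.58 and 0.79 and its mean 0.11 (SE 0.31), so its interval was the widest of the members upward, reaching 1.81-fold brighter. The other Tpm3 probe, A_55_P2246235 (89877669 to 89877728), was not well above background in any channel (93.1, 106, 106 and 98.5), so the transcript part it reads gave no ratio.

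**Figure D2:**
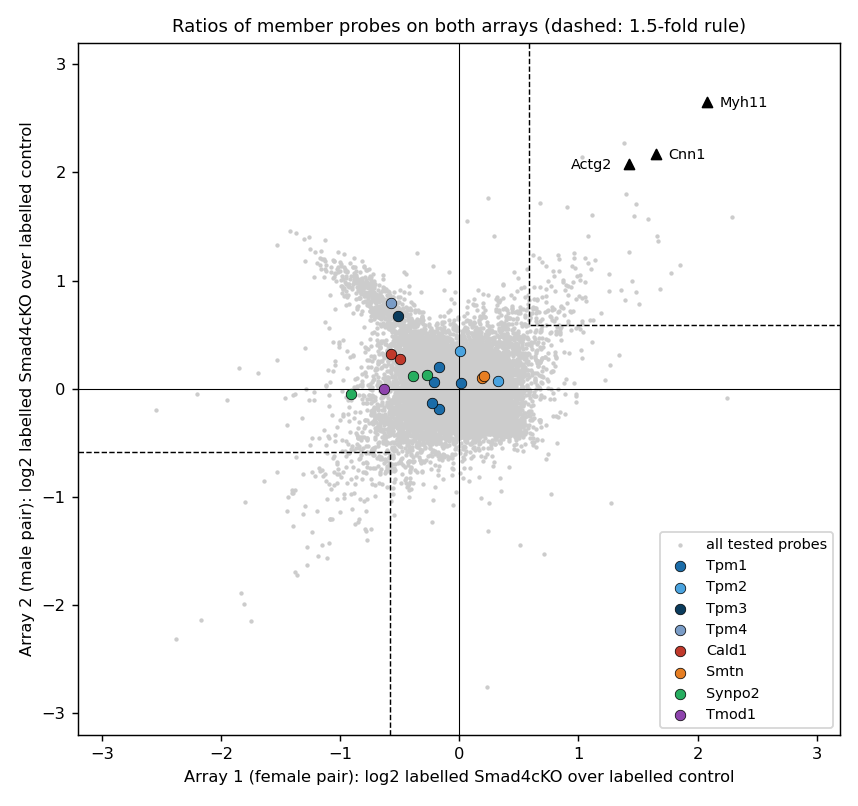
Each point is a tested probe, with its log2 ratio of labelled Smad4cKO over labelled control on array 1 (x axis) and on array 2 (y axis). Grey points are all tested probes, coloured points the 17 tested member probes, and triangles Myh11, Cnn1 and Actg2, while dashed lines bound the regions of the 1.5-fold rule. Tpm3, Tpm4 and both Cald1 probes lie in the upper left, where the arrays have opposite signs, and no member enters a dashed region.

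Cald1 behaved alike at its 2 probes, which lie next to each other on chromosome 6 (plus strand). A_55_P2139181 (34723634 to 34723693) gave 2854 in the labelled Smad4cKO and 4026 in the labelled control on array 1, and 3889 and 3220.1 on array 2. The groups overlap, and the ratios of -0.50 and 0.27 have opposite signs. The mean was -0.11 (SE 0.20, limma adjusted p = 1).

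A_51_P357573 (34723839 to 34723898), the other Cald1 probe, gave ratios of -0.58 and 0.32, from intensities of 1789 and 2671 on array 1 and 2517 and 2014 on array 2. Its interval ran from 1.60-fold dimmer to 1.34-fold brighter. Neither probe is stated in the file to separate the long from the short caldesmon, so these values do not speak to the form.

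Smtn, whose product marks contractile smooth muscle, was among the members most even between the arrays, with the labelled Smad4cKO higher in both pairs. A_55_P2065824 (chromosome 11, minus strand, 3417530 to 3417589, variant 1) gave 22679 against 19675 on array 1 and 22695 against 20866 on array 2. The ratios were 0.20 and 0.12, and such a same sign was common, at 39.7% of all probes tested. The mean of 0.16 (SE 0.13, limma adjusted p = 1) did not pass the test, with an interval from 1.12-fold dimmer to 1.40-fold brighter. The other probe, A_51_P479786 (3420834 to 3420893, variant 2) gave 8504 against 7441 and 8051 against 7538, and a mean ratio of 0.14 (SE 0.13).

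Synpo2 had the largest mean ratio, at 1 of its 3 probes and mostly from array 1 (chromosome 3, minus strand). A_55_P2095133 (122779459 to 122779518) gave 616 in the labelled Smad4cKO and 1158 in the labelled control on array 1, but 864 and 893 on array 2. The Smad4cKO values are the lower in each pair. The ratios were -0.91 and -0.05, with a mean of -0.48 (SE 0.22, limma adjusted p = 1) and an interval from 2.02-fold dimmer to 1.04-fold brighter.

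The other Synpo2 probes had opposite signs on the arrays. A_52_P223127 (122815498 to 122815557) gave 185 and 243 on array 1 and 206 and 189 on array 2, for ratios of -0.39 and 0.12. A_55_P2159309 (122782094 to 122782153) gave 262 and 315 on array 1, but 509 and 466 on array 2. There both groups were brighter on array 2 than either was on array 1, and the ratio was -0.27 and 0.13. Averaged over all 3 probes, Synpo2 came to -0.23.

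Tmod1 was read by a single dim probe, A_51_P297069 (chromosome 4, plus strand, 46127384 to 46127441). It gave 300.4 in the labelled Smad4cKO and 465 in the labelled control on array 1, and 374 and 375 on array 2. The ratio of -0.63 on array 1 had no counterpart on array 2, where it was -0.0052. The mean was -0.32 (SE 0.18, limma adjusted p = 1).

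Lmod1, a leiomodin of smooth muscle, was not well above background in any channel at its single probe, A_66_P123617 (chromosome 1, plus strand, 137264581 to 137264640). Its intensities were 104 and 87.9 on array 1 and 107.2 and 97.3 on array 2, so no fold is given. Its transcript was not detectable with this probe, and nothing about its level follows from that.

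**Figure D3:**
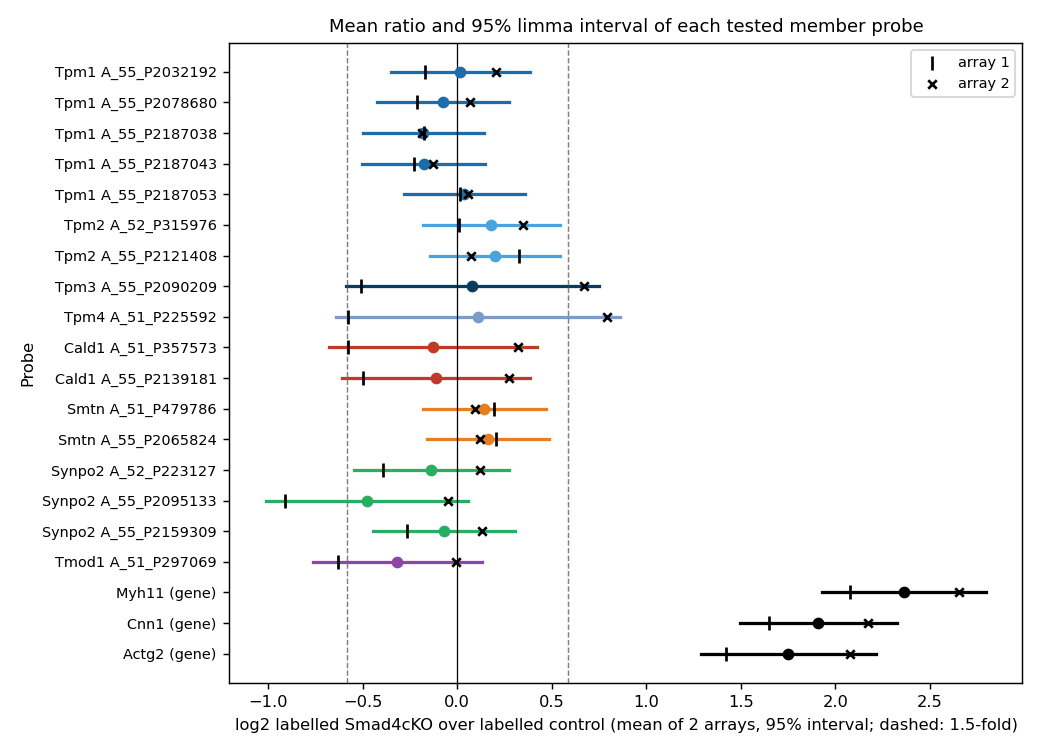
Mean log2 ratio of labelled Smad4cKO over labelled control (x axis, dot) with its 95% limma interval (line) for the 17 tested member probes and for Myh11, Cnn1 and Actg2 (y axis), with array 1 as a bar and array 2 as a cross; dashed lines mark 1.5-fold. All member intervals include 0, and those of Myh11, Cnn1 and Actg2 begin at 1.29 or higher.

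The part of the ratios that followed the dye was larger than the part that followed the genotype label for several members. The mean log2 red over green was 0.68 for Tpm4 and 0.59 for Tpm3. It was 0.45 and 0.38 for the Cald1 probes. For A_55_P2095133 of Synpo2 it was 0.43 beside a genotype mean of -0.48, and for Tmod1 0.31 beside -0.32. In that Synpo2 probe and in Tmod1 the genotype part was thus slightly the larger in size. The Smtn probes stood at -0.05 and -0.04. Over all tested probes its median was -0.00047 with an SD of 0.20. Red was the brighter channel on both arrays for 8 of the 17 member probes, against 30% of all tested probes. Green was so for 0, and the brighter channel changed between the arrays for 9. Over all tested probes, 60.3% had the same channel brighter on both arrays, whether red or green. Several member probes read the same gene, so these counts are not of independent probes.

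This measure varied with brightness. Among the brightest 2667 of all tested probes, those in the top tier of 10, the SD of red over green was 0.38, and 53.1% were brighter in red on both arrays. Tpm3 and Tpm4 lay in that tier, at its percentiles 83.9 and 88.4. The Cald1 probes lay in the middle tiers, where the SD was 0.16 and 0.15, at percentiles 99.2 and 99.0 (A_51_P357573 and A_55_P2139181). Within their own tiers, A_55_P2095133 of Synpo2 (99.0), A_52_P223127 of Synpo2 (96.8) and Tmod1 (96.6) also stood at high percentiles. Since the sexes changed with the dyes, a difference between the female and the male pair cannot be told apart from a difference between the dyes. The genotype means use both orientations, in which a constant dye difference cancels.

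**Figure D4:**
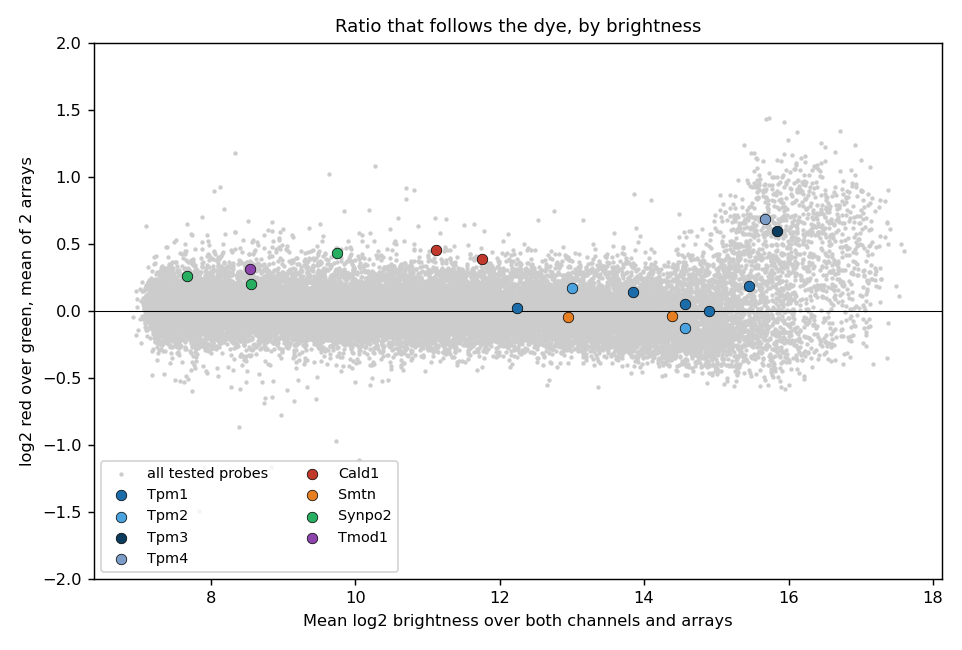
Mean log2 red over green of both arrays (y axis) against mean log2 brightness (x axis) for all tested probes (grey) and the 17 tested member probes (coloured). Among the brightest probes the grey points spread upward, and Tpm3 and Tpm4 lie in that spread, at 0.59 and 0.68, while both Cald1 probes lie at the upper edge of the middle range, at 0.45 and 0.38. A_55_P2095133 of Synpo2 (0.43) and Tmod1 (0.31) also lie high for their brightness.

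Other genes of the thin filament and of actin turnover were mostly near 0 as well, apart from Cnn1. The list held 36 genes, 33 of them tested, with a median log2 ratio of -0.0029. By the 1.5-fold rule 1 was brighter in the labelled Smad4cKO (0.490% of all genes) and 0 dimmer (0.523%), and limma called 0. Cnn1, which encodes the actin-binding calponin, gave 1.65 and 2.17, a mean 3.76-fold difference (limma adjusted p = 0.0767). The synaptopodin paralogue Synpo gave -0.73 and -0.24, the neuronal tropomodulin gene Tmod2 gave -0.56 and -0.25, and the formin gene Fhod3 gave -0.19 and -0.26. The last 3 passed neither rule.

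Among paralogues of the members in that list, Tmod3 (-0.06), Tmod4 (0.02), Lmod3 (-0.0029), Smtnl2 (0.07) and Synpo2l (-0.05) had mean log2 ratios close to 0, although the arrays differed in sign at all but Smtnl2. These 5 were chosen after their values were seen. Tmod2 (mean -0.41) and Synpo (mean -0.49), also paralogues in that list, were farther from 0 and negative on both arrays. Cnn3 gave -0.67 and 0.66, the same order of the arrays as Tpm3 and Tpm4, and was likewise chosen after its values were seen.

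Some motor and cytoskeletal genes of smooth muscle had large ratios of one sign on both arrays. Of 40 contractile genes, 38 were tested, with a median of 0.11 and 0 genes called by limma (Cnn1 is also in this list). By the 1.5-fold rule 8 were brighter (0.490% of all genes) and 1 dimmer (0.523%). Another 4 lay past 1.5-fold in opposite directions (Actb, Actg1, Myl6 and Vim, outside the naming rule and chosen after their values were seen), against 266 of all 21238 genes; as at Tpm3 and Tpm4, array 1 was negative and array 2 positive at each. Myh11 encodes the myosin heavy chain of smooth muscle and gave 2.08 and 2.65, or 5.15-fold (limma adjusted p = 0.0656), and the visceral actin gene Actg2 gave 1.42 and 2.08. Fbxl22, which encodes an F-box protein of muscle, gave 1.38 and 2.28. The 95% intervals of Myh11 (1.93 to 2.80), Cnn1 (1.49 to 2.32) and Actg2 (1.29 to 2.21) lie above that of each member; the difference itself was not tested, and these genes were known from earlier results to be far from 0.

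Of the 22 regulators of smooth muscle, all tested, 1 was brighter by the 1.5-fold rule and 1 dimmer, with a median of 0.02. Myocd, the coactivator that drives contractile genes with SRF, gave 0.90 and 1.68, and Hand2 gave -0.83 and -0.64. Tcf21 (0.92 and 0.33) and the NOTCH target Heyl (-0.37 and -0.20) passed neither rule.

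Among members of one sign on both arrays, Smtn and Tpm2 had the largest smaller ratio of the 2, and likeness was measured for them as the distance between the log2 ratios of 2 arrays, over 67 genes of the contractile and thin filament lists. Nearest to Smtn were the integrin gene Itga8 (distance 0.04), Dmpk (0.11) and Wdr1 (0.12). Nearest to Tpm2 were Fhod1 (0.15), Itga8 (0.15) and Pfn1 (0.17). With 2 values per gene this says only that their ratios were small and similar.

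Markers of the tissue, and most markers of other muscle, were well above background in at least 1 of the 4 channels. In each single channel, between 68.3% and 70.3% of all spots were well above background. All 14 urothelial, 8 mesenchymal, 6 smooth muscle and 7 cardiac markers were well above background in at least 1 channel. That asks less than the single-channel share does, and the same share over all genes was not counted. Only 5 of the 7 cardiac markers could be tested. Of the 17 skeletal muscle markers, whose cells also express tropomyosins, tropomodulin and Synpo2, 14 were, while Myf5, Ckm and Chrnd were not. Their summed intensity in the labelled Smad4cKO was 1.11 times that in the labelled control on array 1 and 0.937 times on array 2. Red cells express Tmod1. Of the 14 erythroid markers, 12 were detected in at least 1 channel, and Sptb and Rhag were not. Their sum was 1.20 times the control on array 1 and 0.990 times on array 2. The skeletal markers Myh3 (-0.71 and -0.73) and Myl1 (-0.61 and -0.57) and the erythroid factors Gata1 (-0.52 and -0.51) and Klf1 (-0.57 and -0.30) led their lists by the smaller of the 2 ratios, and Myh3 alone of them was dimmer by the 1.5-fold rule. Over all genes tested, 19.8% were dimmer and 19.9% brighter on both arrays, and 5.11% had an unadjusted limma p under 0.05. Of 13 skeletal markers tested, 7 were dimmer and 4 brighter on both arrays, and 6 had an unadjusted limma p under 0.05. Their median was -0.21 in log2 (array 1 at -0.05, array 2 at -0.37). Of 12 erythroid markers tested, 7 were dimmer and 2 brighter on both arrays, with a median of -0.14 (-0.15 on each array) and 4 with an unadjusted limma p under 0.05. On array 1 the medians of both lists lay below 0 while their sums lay above the control, but these are not over the same genes. The medians use the 13 and 12 genes tested. The sums use all 17 and 14 on the array, on a linear scale where bright genes weigh most. Their part in the values of Tmod1 and Synpo2 was not tested. In this bulk RNA, fewer cells of a type and less RNA per cell cannot be told apart.

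The remaining marker lists moved by less than 1.5-fold in sum, apart from smooth muscle on both arrays and neurons and glia on array 1. The smooth muscle sum was 1.84 times the control on array 1 and 3.09 times on array 2. Neuronal and glial markers summed to 0.653 and 0.818 times the control, with Prph (-1.03 and -0.69) and Nefm (-1.03 and -0.68) in front. Pericyte and vascular smooth muscle markers summed to 0.90 and 1.07 times, with Kcnj8 (-0.53 and -0.57) and Rgs5 (-0.43 and -0.67). Of these 9 markers, 3 were dimmer and 1 brighter on both arrays, with a median of -0.02. Beside this count and those below, 19.8% of all genes were dimmer and 19.9% brighter on both arrays. Urothelial markers summed to 1.34 and 0.916 times (Cdh1 at 0.24 and 0.28, Upk3a at -0.17 and -0.45). Of these 14 markers, 5 were brighter and 1 (Upk3a) dimmer on both arrays, with a median of 0.11. Mesenchymal markers summed to 0.940 and 0.970 times (Aldh1a2 at -0.75 and -1.30, Bmp4 at -1.04 and -0.43). Among them 3 of 8 were brighter and 2 dimmer on both arrays, with a median of 0.11. The 7 cardiac markers summed to 1.02 and 1.01 times. The arrays differed in sign at all 5 that were tested, against 60.3% of all genes.

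Sequence upstream of the members was described from RefSeq promoter windows of 300 bases (build GRCm38.p6, both strands), which were found for all 9 genes, 11 windows in all. The CArG box, the element bound by SRF, was in 0 of the 11, against 1.63% of all 32851 windows. AGAC or its complement GTCT, the core bound by SMAD proteins, was in 8 of the 11, against 88.0% of all windows. Synpo2, Tmod1 and Tpm4 had none. A match is only a run of letters, and its absence says nothing about sites elsewhere in a gene.

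In every channel, between 68.3% and 70.3% of spots were well above background, and 0 spots were saturated.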

How the data were processed

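Agilent's Feature Extraction software, version 10.7.3.1 by the submitters' processing notes, produced the deposited scanner files. Each spot has an intensity in both channels with quality flags, per the file headers. The authors' deposited table of signed folds between channels has no stated software; by comparison with the processed signals it holds control over Smad4cKO on both arrays, each column with a median of 1. Mean signals were background-corrected (normexp, offset 50) and loess-normalized within arrays, with 1377 control spots at weight 0 (R 4.3.3, limma 3.58.1, statmod 1.5.0, data.table version 1.17.8). Outlier spots (237 and 221 on arrays 1 and 2) were left out. Intensities shown also went through Aquantile. Testing required that 1 labelled group, the same on each array, stood well above background (26670 of 39429 probes), and each of 21238 genes took the values of its brightest such probe. The log2 ratios were tested against 0 with limma's moderated test (1 residual and 4.89 prior degrees of freedom, so SE and intervals rest mostly on the spread pooled over features), fitted over all genes or, for values by probe, over all probes. The fit was tested on simulated ratios with independent errors on the arrays and no part that followed the dye, unlike these data. There limma called 68% of the genes simulated at a log2 ratio of 1 in size, with 14 false calls. A second, untested rule asked for 1.5-fold in one direction on both arrays; turning the signs of 2 arrays gives no p below 0.5. Symbols of 26412 probes came from RefSeq by accession. Named genes were all members, Smad4, and per list up to 4 genes (2 for marker lists) of one sign on both arrays with the largest smaller ratio; exceptions are said. Members and lists were chosen with earlier results of these data known. Alternatives were another offset, no background subtraction, processed signals, the authors' values, median centring, other filters, outliers kept, an intensity trend, the mean of a gene's probes, other folds and leaving out an array.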

Additional observations from a re-analysis of the deposited data

Results flagged for a closer look

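At 4 member genes the female pair of array 1 and the male pair of array 2 gave log2 ratios of opposite sign at the probe that stood for the gene. Cald1 gave -0.50 and 0.27, so the male ratio was higher by 0.77. Tpm1 gave -0.17 and 0.20, a difference of 0.37. Tpm3 gave -0.51 and 0.67, a difference of 1.18. Tpm4 gave -0.58 and 0.79, a difference of 1.37. With 1 array per sex the difference was not tested, and the dyes were exchanged together with the sex. Opposite signs were common, at 60.3% of all genes tested, so 4 of 8 members is no more than that share.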

How the results depend on the processing

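No member was called by limma or passed the 1.5-fold rule in one direction under any of the 10 processing alternatives that used both arrays. None passed the rule at the looser threshold either, and failing at 2-fold follows from failing at 1.5-fold. Of the 80 gene values the processing alternatives gave, 77 kept their sign, and among probe values 151 did and 2 did not. The other filters, the kept outliers and the intensity trend left every one of these log2 ratios unchanged. Those settings are in the counts but say nothing about the sign. The exceptions were Tpm1 at -0.0225 with processed signals and -0.0154 with the authors' values (probe A_55_P2032192 in both) and at -0.0759 with the mean of its probes. The lowest adjusted p of any member was 0.0885, for Synpo2 with an intensity trend and robust variance, a setting that called 705 of all genes against 1. An unadjusted p under 0.05 was reached by 1 member with processed signals (6.96% of all genes) and with the authors' values (6.62%), and by 2 with the trend (8.11%). The arrays differed in sign at 8 of 8 members with median centring (68.5% of all genes) and at 4 to 5 otherwise (58.4% to 61.0%). Members at 1.5-fold in opposite directions numbered 1 without background subtraction (1.31% of all genes), 3 with median centring (6.78%) and 2 with the looser fold threshold (4.23%), against 0. Over all genes, 184 were brighter and 199 dimmer with processed signals and 177 and 184 with the authors' values, against 104 and 111. From a single array, which allows no test, 0 to 2 members were brighter and 0 to 2 dimmer, all genes numbered 256 to 635 brighter and 242 to 684 dimmer, and the members' median ran from -0.50 to 0.16. The within-array ratio is itself the paired comparison, and no further replicate block could be fitted. Signal over background limits Lmod1 and 1 Tpm3 probe.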
